A study of Mus musculus with 4 samples.

Results

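Transitional B cells are recent emigrants of the bone marrow, and in these data they were taken as the B cells of mouse blood with the most Vpreb3 and Spib transcripts. Members were chosen by their UMI counts: a cell was a member when it held at least 3 Cd79a UMIs, at least 3 Vpreb3 UMIs, a sum of Vpreb3 and Spib of at least 4, 0 S100a6 UMIs, 0 Adm UMIs and a sum of Cd3d, Cd3e and Cd3g of at most 1. A UMI (unique molecular identifier) counts 1 captured transcript molecule. Of the 14588 cells in the table, 276 met the rule: 108 in young 1, 90 in young 2, 55 in old 1 and 23 in old 2. The cells came from the blood of C57BL/6 female mice fed ad libitum, aged 4 months (young) or 24 months (old). Mononuclear cells were taken off a Lymphoprep gradient after blood was drawn from the heart, and red cells were lysed before 10x Chromium 3′ v2 libraries were made. Each of the 4 samples was a pool of 2 mice, which gives n = 2 pools at each age, and cells were not assigned to single mice.

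B cells leave the bone marrow before they are fully mature. On their way to the follicles of the spleen they lose CD24 and CD93, gain CD23 (Fcer2a) and the complement receptor CD21 (Cr2), and come to depend on the survival factor BAFF. Vpreb3 encodes a partner of the immunoglobulin chains of developing B cells, and Spib encodes an ETS family transcription factor of B cells that acts downstream of the B cell receptor.

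Vpreb3 lies at chr10:75943057-75949657 on the plus strand, and Spib at chr7:44525993-44532071 on the minus strand (GENCODE M21 on GRCm38, the assembly also named mm10). Chchd10, a gene of a mitochondrial protein that was among the genes most raised in the members, lies at chr10:75933130-75937747 on the same strand as Vpreb3. The end of Chchd10 is 5310 bases from the start of Vpreb3, and Mmp11 and Gm867 overlap Chchd10 on the other strand. The 250 bases before each start (RefSeq, GRCm38.p6, plus strand) are shown because both hold the octamer ATTTGCAT, or its reverse complement, which POU factors of B cells bind. Capitals mark the octamer. The stretch of Vpreb3 spans chr10:75948050-75948299, which lies before the RefSeq start and inside the longer GENCODE gene, and that of Chchd10 spans chr10:75932880-75933129.
Vpreb3: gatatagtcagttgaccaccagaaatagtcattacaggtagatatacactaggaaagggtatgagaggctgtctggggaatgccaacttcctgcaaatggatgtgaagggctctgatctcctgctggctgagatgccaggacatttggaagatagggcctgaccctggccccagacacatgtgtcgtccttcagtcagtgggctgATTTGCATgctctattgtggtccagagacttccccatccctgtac
Chchd10: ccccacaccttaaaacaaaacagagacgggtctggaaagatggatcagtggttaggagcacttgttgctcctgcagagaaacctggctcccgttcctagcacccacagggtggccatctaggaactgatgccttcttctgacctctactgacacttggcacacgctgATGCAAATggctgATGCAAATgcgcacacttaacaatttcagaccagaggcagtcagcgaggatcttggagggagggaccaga
The octamer of Vpreb3 begins 45 bases before the start, in sense orientation, and Chchd10 holds 2 octamers in antisense orientation, beginning 83 and 70 bases before its start. Searched on both strands over the same 250 bases, the octamer occurs in 1.6% of all 32851 promoters of the table. It occurs in 4 of the 142 matched genes that were higher in the members, which is 2.82%, in 4 of the 205 that were lower (1.95%), and in 1.64% of the 2441 matched genes among all those tested. Besides Chchd10 the higher genes with it were H3f3b, Psmd13 and Sash3. A palindrome bound by EBF1, searched in the same way, occurs in 0.779% of all promoters, in 1.6% of the genes tested and in 6 of the same 142 higher genes (4.23%), namely Arpc5, Capzb, Ceacam1, Cycs, Dpp4 and Sdc4, and in 2 of the 205 lower ones (0.976%). A match is a description of the sequence only. Neighbours of Vpreb3 that could be tested beside Chchd10 were Mif and Smarcb1, chosen here for their place. In the comparison with B cells that had 0 Vpreb3 UMIs (edgeR quasi-likelihood test, Benjamini-Hochberg adjustment), neither passed: Mif had 0.32 ± 0.13 SE and Smarcb1 0.42 ± 0.21 SE on the log2 scale, with adjusted p = 0.107 and 0.212.

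The rule was set on Vpreb3, Spib, Cd79a, S100a6, Adm and the Cd3 genes, so their levels are given as a description. Vpreb3 stood at 1904, 1831, 2533 and 1202 CPM (UMIs of the gene per 1000000 UMIs of all genes) in young 1, young 2, old 1 and old 2. Spib stood at 786, 738, 975 and 487 CPM in the same order, against 165 to 218 CPM in B cells with 0 Vpreb3 UMIs. Old 1 was the highest pool and old 2 the lowest for both genes. Only 4 of the 23 members of old 2 held 5 or more Vpreb3 UMIs, against 35 of 55 in old 1, 46 of 108 in young 1 and 34 of 90 in young 2. Members held a median of 2200 UMIs per cell, from 2091 in old 1 to 2374 in young 1. One cell of old 2 held 13486 UMIs, or 19.3% of that pool's 69875 UMIs from members.

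Of the 5 marker genes of the label, Cd24a and Myl4 stood apart in every pool, Myl4 at a low level, and Sox4 was scarce. Cd24a (chr10:43578284-43584265, plus strand), which encodes the heat stable antigen of immature B cells, stood at 1072 and 975 normalised CPM in young pools and 1455 and 1126 in old pools, where normalised CPM are CPM on library sizes scaled by edgeR's TMM factors. The B cells with 0 Vpreb3 UMIs had 347 and 390 in young pools and 266 and 503 in old pools, so each pool of members lay above all pools of the comparison cells (log2 fold change 1.65 ± 0.12 SE, adjusted p = 9.29e-13). Myl4 (chr11:104550663-104595753, plus strand), a myosin light chain, had only 40 UMIs in all members and stood at 49.8, 25.3, 94.1 and 56.3 normalised CPM in young 1, young 2, old 1 and old 2, against 6.35 to 14.3 in the B cells with 0 Vpreb3 UMIs. It had a UMI in 11.2% of members and 1.9% of the comparison cells, so it met the filter of the test, a UMI in at least 10% of the cells of either class, only through the class where it is high, and no p is given for it. Both markers were put forward with results of these data known and are no independent evidence for the label. Sox4 (chr13:28948919-28953713, minus strand), a transcription factor of B cell precursors, had 12, 10, 4 and 0 UMIs in the members of young 1, young 2, old 1 and old 2. It was too low to be tested, and 0 of 69875 UMIs allows a level of up to 42.9 CPM in old 2.

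Genes of earlier stages were at or near 0 in the members. Vpreb1, a part of the surrogate light chain of pre-B cells, and Dntt, the terminal transferase of pro-B cells, had 0 UMIs. Mki67, a gene of dividing cells, had 1 UMI in the 276 cells. Cd93, which marks the early transitional stages, was low too, with 9 UMIs. In B cells within the limits on Cd79a, S100a6, Adm and Cd3, Cd93 stood at 2.11 CPM (14 UMIs) with 0 Vpreb3 UMIs. With 5 or more Vpreb3 UMIs it stood at 19.9 CPM (6 UMIs). Rag1, Rag2, Igll1 and all immunoglobulin genes were not analysed here, so surface IgM and IgD could not be set beside the label. Among the cells around the limit of the rule, levels changed by degrees. B cells within the limits on Cd79a, S100a6, Adm and Cd3, with no limit on the sum of Vpreb3 and Spib, were sorted by their Vpreb3 UMIs: 2797 had 0, 1024 had 1, 371 had 2, 156 had 3, 73 had 4 and 119 had 5 or more. Cells with 2 Vpreb3 UMIs, just outside the limit, had 503 Cd24a CPM. Of the 156 cells with 3 Vpreb3 UMIs, the 84 that also held Spib were members and had 1058 Cd24a CPM, and the 72 with 0 Spib UMIs were not and had 337. From 0 to 5 or more UMIs, Cd24a went from 351 to 1496 CPM and Spib from 196 to 976. Fcer2a stayed between 272 and 315 CPM up to 4 UMIs and was at 169 CPM in the cells with 5 or more. Ccr7, the chemokine receptor of naive lymphocytes, went from 305 to 172 CPM, and Cd55, a complement regulator, from 336 to 215. Median depth lay between 2072 and 2201 UMIs in all 6 bins.

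**Figure D1:**
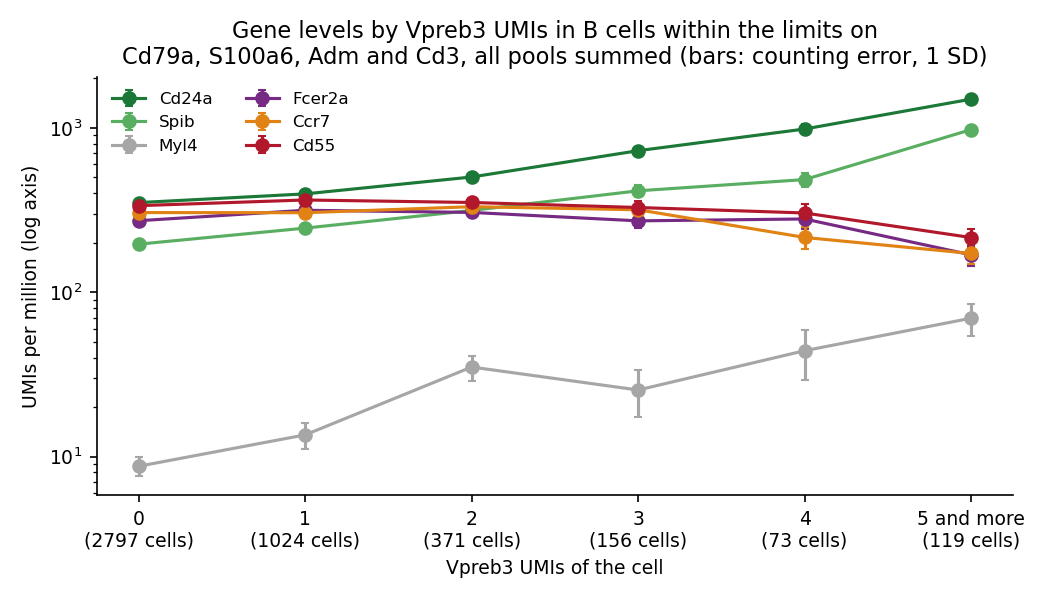
Levels of 6 genes (CPM of all UMIs, log axis) in B cells within the limits on Cd79a, S100a6, Adm and Cd3 (no limit on Spib), by the number of Vpreb3 UMIs in the cell, with the 4 pools summed; bars are the counting error (1 SD). Cd24a and Spib are highest at 5 or more Vpreb3 UMIs (1496 and 976 CPM), where Fcer2a, Ccr7 and Cd55 are lowest.

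Transitional B cells made up a smaller share of B cells in both old pools. Among cells with at least 3 Cd79a UMIs and a Cd3 sum of at most 1, called gated B cells here, members were 5.32% of 2031 in young 1 (95% exact binomial interval 4.38 to 6.38%), 4.43% of 2032 in young 2 (3.58 to 5.42%), 1.58% of 3489 in old 1 (1.19 to 2.05%) and 1.48% of 1551 in old 2 (0.942 to 2.22%). The ages did not overlap, and the means were 4.87% ± 0.628 in young pools and 1.53% ± 0.0661 in the old (SD, n = 2 pools each). The difference of −3.34 percentage points had p = 0.33 in a two-sided exact permutation test, the smallest p that 2 pools against 2 allow. Intervals cover counting error only.

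The smaller share moved with the S100a6 limit of the rule. Of cells that passed every other limit, S100a6 left out 20.6% and 18.9% in young pools and 54.9% and 45.2% in old pools. S100a6, a calcium-binding protein gene, had a UMI in 28.8% and 33.0% of T cells in young pools and in 91.0% and 79.1% in old pools, so the ages were apart in T cells too. Its part in the smaller share was not tested beyond the values that follow. With no S100a6 limit the shares were 6.08% ± 0.872 and 3.10% ± 0.558 (SD, n = 2 each), and the ages still did not overlap. Taken of gated B cells with 0 S100a6 UMIs, the share was 7.21%, 5.64%, 7.17% and 3.39% in young 1, young 2, old 1 and old 2, and the ages overlapped (difference −1.15 points, exact permutation p = 0.667). With each cell thinned to 2000 UMIs, which left out 3929 shallower cells of all types, members were 4.59% and 2.70% of gated B cells in young pools and 1.45% and 0.653% in old pools, with no overlap. Thinned to 1000 UMIs, they were 2.13% and 1.65% in young pools and 1.68% and 0.320% in old pools, and young 2 lay below old 1. A share of sampled cells does not tell fewer transitional cells from more of the other B cells.

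**Figure D2:**
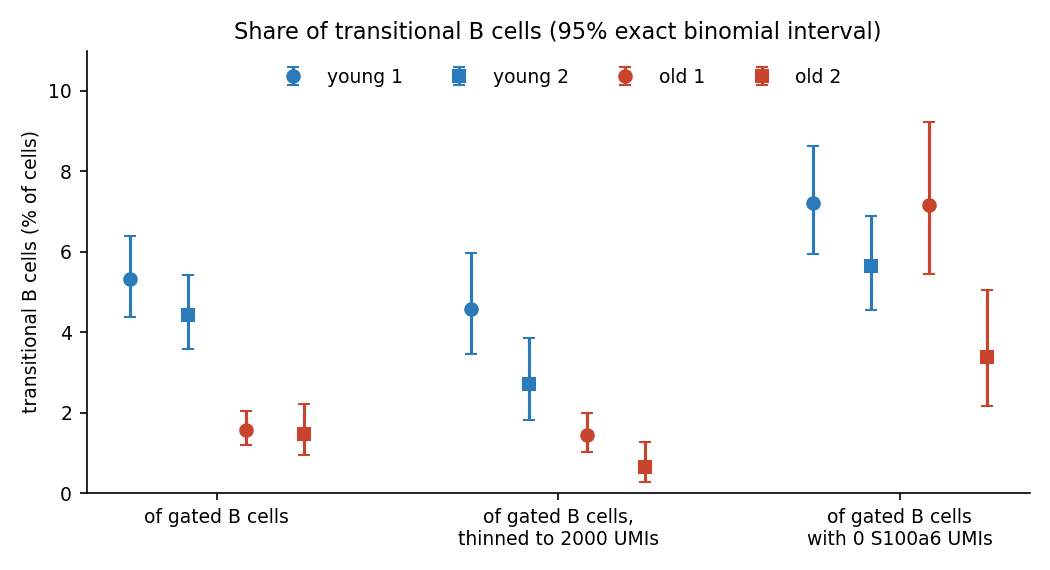
Share of transitional B cells (percent) in each pool, of all gated B cells, of gated B cells after thinning each cell to 2000 UMIs, and of gated B cells with 0 S100a6 UMIs; bars are 95% exact binomial intervals. The old pools lie below both young pools in the first 2 sets, and in the third old 1 (7.17%) lies beside young 1 (7.21%).

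To find what else set these cells apart, counts were summed per pool and members were compared within each pool with the 2797 B cells that met the same limits on Cd79a, S100a6, Adm and Cd3 but had 0 Vpreb3 UMIs. These comparison cells, called Vpreb3-0 B cells, numbered 869, 987, 485 and 456 in young 1, young 2, old 1 and old 2. Of 3118 genes tested besides the 8 genes of the rule, 192 were higher in transitional B cells (6.16%) and 287 were lower (9.2%) at an adjusted p under 0.05 (edgeR quasi-likelihood test with pool as a block, Benjamini-Hochberg adjustment), and all adjusted p values of this comparison come from that test. Among the genes named below, Cd24a, Ms4a1 (CD20) and Siglecg were higher, and H2-Aa of MHC class II, Rps27 of the ribosome and Ccr7 were lower. On UMI totals with no TMM scaling the median gene was 0.23 higher on the log2 scale (0.01 with TMM), and the calls split into 480 higher and 137 lower, so all changes below are relative to the median gene. Of the 192 higher genes, 51 met the filter only through the members, and 27 of the 287 lower ones only through the Vpreb3-0 B cells, which favours a difference. Over the 2371 genes with a UMI in at least 10% of the cells of both classes, a limit set after seeing the data, 178 were higher and 234 lower. The 8 red cell genes summed to between 18571 and 68215 CPM in members and between 24773 and 108876 CPM in the Vpreb3-0 B cells, and their part in the result was not tested.

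Of the immature B cell and precursor list (36 genes), 13 were tested, 6 were higher and 1 was lower, with a median log2 fold change of 0.42 against 0.00956 over all genes tested. Of the 9 seen in at least 10% of the cells of both classes, 5 were higher and 0 lower (median 0.422). Cd24a is among the higher genes of both counts. Myl4, which met the filter only through the members, is among those of the first. Both are markers of the label, so these counts are no independent evidence for it. Chchd10 stood at 680, 764, 1042 and 324 normalised CPM in the members of young 1, young 2, old 1 and old 2 and at 239, 255, 225 and 144 in the Vpreb3-0 B cells (log2 fold change 1.69 ± 0.11 SE, adjusted p = 2.18e-13). Every pool of members lay above every pool of the comparison cells. Dnajc7, a cochaperone gene, was higher by 1.09 ± 0.11 (SE, adjusted p = 5.11e-09), Ebf1, the early B cell factor, by 0.37 ± 0.07 (adjusted p = 0.000107) and Id3, an inhibitor of E proteins, by 0.44 ± 0.13 (adjusted p = 0.0115), all on the log2 scale. Plaur, the urokinase receptor gene, was the one that was lower (−1.13). It was not called among the genes seen in at least 10% of the cells of both classes, so its value is a description.

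The genes with the largest increase that were higher in 4 of 4 pools were mostly low in both classes. Wfdc21, a secreted protease inhibitor family gene, had 73.3, 148, 159 and 42.2 normalised CPM in the members and 3.03 to 10.5 in the Vpreb3-0 B cells (log2 fold change 4.15 ± 0.34 SE). The lowest pool of members, old 2, rested on 3 UMIs and still lay above all comparison pools. Next came Dusp10 (2.98), a MAP kinase phosphatase, Cfp (2.81), which encodes properdin, Hes1 (2.51), a target of Notch, Coq7 (2.46), Emid1 (2.46), Fam129c (2.41), Myl4, Atp1b1 (2.35), a sodium pump subunit, BC035044 (2.11), Ift22 (1.80), Ifi30 (1.75), Chchd10 and Dusp6 (1.67), a phosphatase of ERK, in log2 fold change. All but Ifi30 and Chchd10 of these, 12 genes with Wfdc21, met the filter only through the members, where they are high, so their values are a description. The same test with no filter also called these 12. Hes1 was uneven among the members, with 76.2 and 101 normalised CPM in young pools and 14.5 and 141 in old pools, against 11.6 to 16.6 in the Vpreb3-0 B cells. Fam129c was even in 3 pools (193, 160 and 203 normalised CPM in young 1, young 2 and old 1) and lower in old 2 (84.5).

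Of 33 signalling genes of the B cell receptor tested, 7 were higher and 2 lower, with a median of 0.00784. Over all genes tested, 6.16% were higher and 9.2% lower. Ms4a1, which encodes CD20, stood at 2576, 2157, 3156 and 1999 normalised CPM in the members against 1068, 1080, 1141 and 1296 in the Vpreb3-0 B cells (log2 fold change 1.13 ± 0.08 SE, adjusted p = 2.86e-12), with no overlap between the classes. Ptpn6, the phosphatase SHP-1 (0.89), Siglecg, an inhibitory lectin (0.79), and Cd72, another inhibitory receptor (0.95), were higher with adjusted p between 4.25e-09 and 3.9e-08. Cd79b, the partner of Cd79a, was higher by 0.46 ± 0.07 (SE, adjusted p = 2.21e-06), and Cd53 and Lyn passed the test with smaller changes. Nfatc1, a calcium-regulated transcription factor (−1.29), and Cr2 (−0.78) were lower. Nfatc1 met the filter only through the Vpreb3-0 B cells, where it is high, so its value is a description. Of 33 surface genes of B cells, 7 were higher and 5 lower (median 0.0116), among them Ly6d, a marker of B lineage commitment, at 0.91 ± 0.07 (SE, adjusted p = 2.85e-12).

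Genes of the mature follicular state were mixed. Of 24 tested, 8 were lower and 2 higher, with a median of −0.21. Of the 20 seen in at least 10% of the cells of both classes, 6 were lower and 2 higher (median −0.16). Fcmr, the Fc receptor of IgM, stood at 712, 583, 500 and 760 normalised CPM in the members and 1031, 888, 884 and 895 in the Vpreb3-0 B cells (−0.56 ± 0.09 SE, adjusted p = 7.66e-06), and no pool of members reached the comparison pools. Ccr7 (−0.76) and Cd55 (−0.66) were lower in 4 of 4 pools. Satb1, a chromatin organiser (−1.16), Icosl, a costimulatory ligand (−0.97), Zfp318, a factor of IgD splicing (−0.93), and Cr2 were lower as well. Fcmr, Ccr7, Cd55 and Fcer2a were called among the genes seen in both classes. The lower calls that did not hold there were thus among Satb1, Icosl, Zfp318 and Cr2, and their values are a description. Fcer2a was lower as well (log2 fold change −0.59 ± 0.15 SE, adjusted p = 0.00427), with 179, 241, 167 and 253 normalised CPM in the members and 347, 328, 294 and 160 in the Vpreb3-0 B cells. It was below the comparison cells in 3 pools and above them in old 2. Fcer2a passed in 13 of 20 alternatives. Among those where it did not were DESeq2, thinned cells, no TMM scaling and the fit without cells of mixed type. The 2 higher genes were Tnfrsf13c, the receptor of BAFF, and Cd37, a tetraspanin. Tnfrsf13c stood at 709, 625, 775 and 408 normalised CPM against 301, 318, 324 and 244 (1.12 ± 0.10 SE, adjusted p = 1.38e-10). Without young 1, the pool with most members, the list held 2 lower and 2 higher of 23 genes tested, and without TMM scaling it held 5 lower and 3 higher with a median of 0.0123. Against all other gated B cells it held 1 lower and 3 higher of 24 (median −0.0407), and Fcmr, Ccr7, Cd55 and Fcer2a did not pass there (adjusted p from 0.463 to 0.896).

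**Figure D3:**
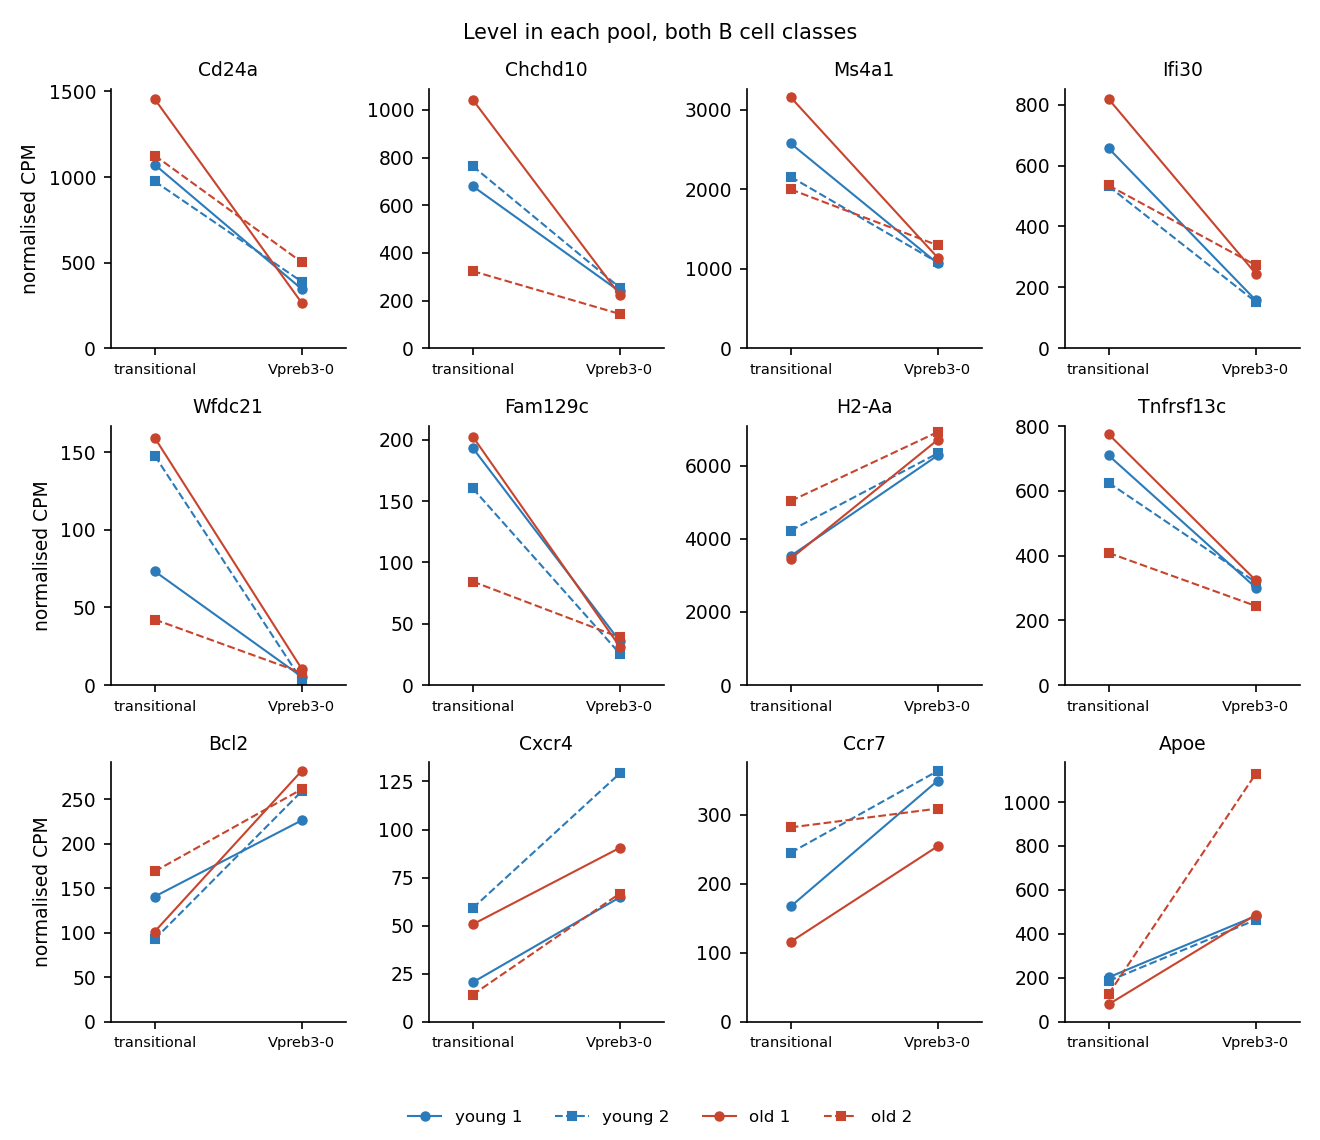
Normalised CPM (CPM on TMM-scaled library sizes, linear axes from 0) of 12 genes in transitional and Vpreb3-0 B cells, with 1 line per pool. Cd24a, Chchd10, Ms4a1, Ifi30, Wfdc21, Fam129c and Tnfrsf13c fall from left to right in 4 of 4 pools, and H2-Aa, Bcl2, Cxcr4, Ccr7 and Apoe rise in 4 of 4.

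Survival genes were called in both directions. Of 18 tested, 5 were higher and 2 lower (median −0.0569), where 6.16% of all genes tested were higher and 9.2% lower. Of the 14 seen in at least 10% of the cells of both classes, 3 were higher and 2 lower (median −0.151), so not all of the higher calls below held there. Tnfrsf13c and Tnfrsf13b, the BAFF receptor and TACI, were both higher, TACI by 0.83 ± 0.11 (SE, adjusted p = 8.87e-07). Bcl2, which protects mature B cells from apoptosis, was at 141, 92.9, 101 and 169 normalised CPM in the members and 226, 259, 282 and 261 in the Vpreb3-0 B cells (−1.03 ± 0.16 SE, adjusted p = 5.43e-06), without overlap. The proapoptotic genes Bak1 (1.19) and Bad (0.90) and Cycs, which encodes cytochrome c (0.47), were higher, and Stk17b was lower (−0.43). Tnfrsf13c and Tnfrsf13b passed in 20 of 20 alternatives, so the higher calls that did not hold were among Bak1, Bad and Cycs. The values of these genes are therefore a description, and Bak1 did not pass in cells thinned to 2000 UMIs (adjusted p = 0.6945).

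Of 17 MHC class II presentation genes tested, 10 were lower and 2 higher (median −0.405). H2-Aa stood at 3534, 4230, 3460 and 5039 normalised CPM in the members against 6286, 6343, 6712 and 6926 (−0.70 ± 0.07 SE, adjusted p = 3.49e-09). The highest pool of members, old 2, lay below the lowest pool of the comparison cells. H2-Eb1 (−0.76), H2-Ab1 (−0.49), H2-Oa (−0.72), H2-Ob (−0.61), Ctsh (−0.38) and Ciita, the master regulator of the class (−0.63), were also lower. Cd74, the invariant chain, missed the threshold (−0.14 ± 0.05 SE, adjusted p = 0.078). Ifi30, a lysosomal thiol reductase, was higher in 4 of 4 pools, with 656, 532, 818 and 535 normalised CPM against 158, 153, 246 and 273 (1.75 ± 0.11 SE, adjusted p = 2.21e-13), and Ctsb, a cathepsin, was higher by 0.63. Against all other gated B cells instead of the Vpreb3-0 B cells, 2 of 18 were lower and 1 higher, and without TMM scaling 5 of 17 were lower and 2 higher. In the MHC class I list, 2 of 25 were higher (Hspa5 and Calr, chaperones of the endoplasmic reticulum), 1 was lower (H2-T22), and the median was 0.00865. The shares over all genes tested were 6.16% higher and 9.2% lower.

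Cytoplasmic ribosomal protein genes were lower nearly throughout. Of 84 tested, 81 were lower and none was higher, with a median of −0.463. Rps27 stood at 9483, 11942, 8513 and 12415 normalised CPM in the members and 16688, 18357, 16606 and 16464 in the Vpreb3-0 B cells (−0.70 ± 0.07 SE, adjusted p = 1.32e-09), and the classes did not overlap. Rpl37a, Rpl36 and Rps24 had log2 fold changes of −0.64, −0.68 and −0.64. Without TMM scaling, 63 of the 84 were lower and the median was −0.245, while the median gene stood at 0.23. Mitochondrially encoded genes had 8 of 11 lower (median −0.256), a count that fell to 0 of 11 without TMM scaling and 3 of 11 without young 1. Nuclear genes of oxidative phosphorylation had 5 of 77 lower and none higher (median 0.0331), where 9.2% of all genes tested were lower. Without TMM scaling they had 15 higher and none lower.

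**Figure D4:**
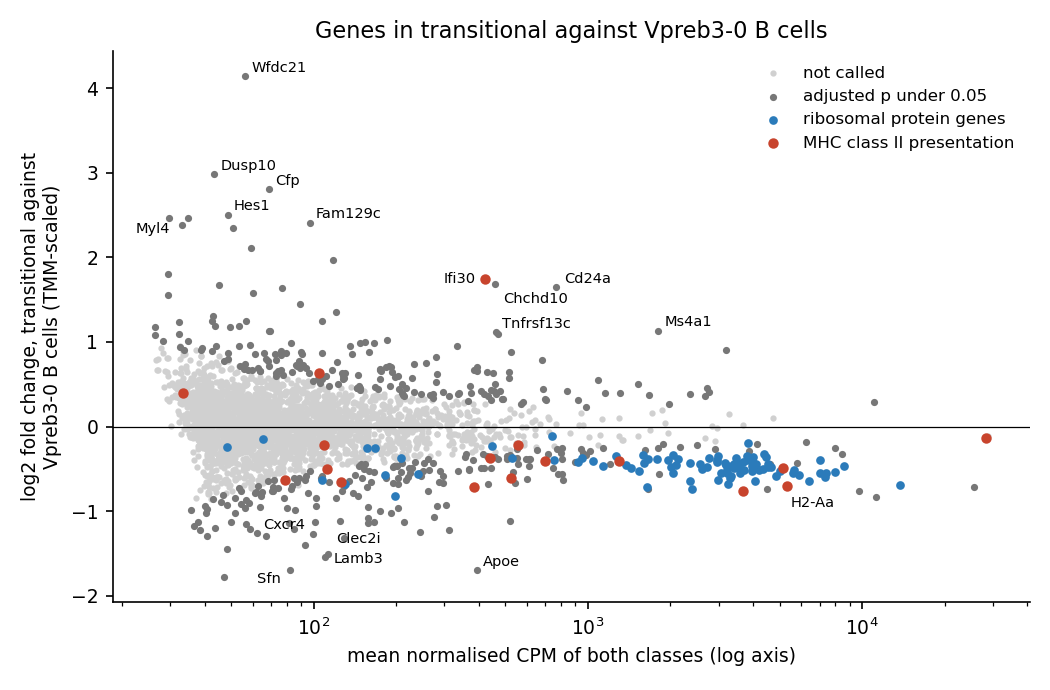
Log2 fold change of transitional against Vpreb3-0 B cells (TMM-scaled) by mean normalised CPM of both classes (log axis) for the genes tested, with ribosomal protein and MHC class II presentation genes in colour. Ribosomal protein genes lie mostly below 0 (median −0.463), and Wfdc21 (4.15) is the highest point.

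Trafficking, activation and transcription factor genes followed. Of 23 migration and adhesion genes, 6 were lower and 2 higher (median −0.214). Of the 17 seen in at least 10% of the cells of both classes, 3 were lower and 1 higher (median −0.327). Cxcr4, which holds B cells in the marrow, stood at 20.5, 59.1, 50.7 and 14.1 normalised CPM against 64.7, 129, 90.5 and 66.7. It was lower in 4 of 4 pools (log2 fold change −1.26). Cxcr4 met the filter only through the Vpreb3-0 B cells, where it is high, so its values are a description. Cd69, an early activation antigen (−1.08), and Itgb7, an integrin chain (−0.70), were lower, while the regulators of G protein signalling Rgs2 (1.45) and Rgs18 (1.17) were higher. At most 1 of Rgs2 and Rgs18 was called among the 17 genes seen in both classes, so their values are a description. Klf2 and S1pr1, which direct exit into blood, did not pass the test (−0.11 ± 0.07 and −0.21 ± 0.16 SE, adjusted p = 0.342 and 0.428). Of 20 heat shock and immediate early genes, 6 were lower and none higher (median −0.122), namely Ier2, Cd69, Klf6, Junb, Fos and Jund. Of 36 transcription factors of the B lineage, 9 were higher and 9 lower (median −0.0817): Lyl1 (0.86), Zeb2 (0.86), Hhex (0.50), Tcf3 (0.48), Spi1 (0.47) and Irf8 (0.43) were among the higher, and Satb1, Zbtb20 (−1.13), Klf6 (−1.12), Ets1 (−0.52) and Mef2c (−0.38) among the lower. Without TMM scaling, 12 of the 36 were higher and 4 lower. Of the 33 seen in at least 10% of the cells of both classes, 9 were higher and 6 lower (median −0.012).

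The genes with the largest decrease, lower in 4 of 4 pools, were led by Apoe, Sfn, Lamb3 and Clec2i. Apoe, a lipid carrier, stood at 202, 186, 79.6 and 127 normalised CPM in the members and 481, 464, 487 and 1128 in the Vpreb3-0 B cells (−1.70 ± 0.16 SE, adjusted p = 7.64e-10), without overlap. Sfn, a 14-3-3 protein (−1.70), Lamb3, a laminin chain (−1.54), Clec2i, a lectin (−1.50), Ahnak (−1.45), Bmyc (−1.40), Alas2 of heme synthesis (−1.32), Hcst (−1.30), Nfatc1, Stt3b (−1.28), Cxcr4, Ms4a4c (−1.25), Smagp (−1.22) and Pgap1 (−1.22) followed in log2 fold change. Ahnak, Alas2, Hcst, Nfatc1, Cxcr4 and Smagp met the filter only through the Vpreb3-0 B cells, and the same test with no filter also called these 6. Of 10 marginal zone and B-1 genes, 4 were lower (Ahnak, Plac8, Mzb1 and S100a10, median −0.249), and without TMM scaling 1 was lower and 1 higher. Of 6 genes of age-associated and memory B cells, Apoe and Zbtb20 were lower and Tnfrsf13b and Zeb2 higher (median −0.36). Hmgb2 and Tuba1b were the 2 lower of 7 proliferation genes (median −0.418), and the interferon list had 2 higher and 2 lower of 21 (median 0.135). Of all genes tested, 6.16% were higher and 9.2% lower. Of the genes of other cells, 6 of 6 red cell genes and Ccl5 of NK cells were lower, Mzb1 was the lower of 2 plasma cell genes, and none of 4 monocyte and 1 T cell genes tested passed.

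Without young 1 the comparison gave 105 higher and 171 lower genes, and without young 2 it gave 119 and 208. Without cells that held 2 or more UMIs of other cell types, it gave 108 higher and 187 lower, with 0 of 4 red cell genes and 0 of 8 marginal zone and B-1 genes called.

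The members were not uniform. A UMI of Fcer2a, a gene gained during the transition, was found in 90 of the 276 members: 36 of 108 in young 1, 30 of 90 in young 2, 14 of 55 in old 1 and 10 of 23 in old 2. Cells with it were deeper (median 2464.5 against 2073.5 UMIs). In CPM of all UMIs, Cd24a stood at 659, 517, 892 and 607 in members with a Fcer2a UMI and at 1582, 1314, 1893 and 1672 in those without. Those without it were higher in each of the 4 pools. Chchd10 followed the same order in 4 of 4 pools (509 against 983 CPM over all pools), and Ccr7 the reverse (269 against 175 CPM). Gpr183 was higher with a Fcer2a UMI in 4 of 4 pools (116 against 64.2 CPM over all pools), but each old pool held only 1 or 2 UMIs on either side. Vpreb3 (1414 against 2223 CPM) and Spib (554 against 906 CPM), genes of the rule, were lower with it in 4 of 4 pools. Some other genes did not follow this split. Over all pools Cr2 stood at 59.84 against 59.79 CPM, Sox4 at 37.4 against 35.4 and Klf2 at 1631 against 1710. Cd55 was higher with a Fcer2a UMI in both young pools but lower in old 1 (195 against 235 CPM) and old 2 (86.7 against 255 CPM). Cd93 had 1 UMI in the members with and 8 UMIs in those without a Fcer2a UMI. These are cells of the same 4 pools and are given as a description.

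To ask how age changed these cells, old and young pools of members were compared over 2607 genes. At an adjusted p under 0.05 (edgeR quasi-likelihood test, Benjamini-Hochberg adjustment), 2 genes were higher in old transitional B cells (0.0767%) and 0 were lower (0%), with 95 genes at an unadjusted p under 0.05. DESeq2 called 0, with 7 at an unadjusted p under 0.05. In bulk sums, fewer cells of a subtype and less RNA per cell cannot be told apart.

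Both genes respond to interferon. Ly6a, which encodes Sca-1, stood at 164 and 236 normalised CPM in young pools and 521 and 422 in old members (log2 fold change 1.27 ± 0.23 SE, adjusted p = 0.021). Both old pools lay above both young ones. Ifi27l2a, an interferon-induced gene, stood at 686 and 789 in young pools and 2772 and 1112 in old members (1.41 ± 0.26 SE, adjusted p = 0.021). Old 1 was far above old 2, and both were above the young pools. Without young 1 or without old 1 neither gene passed, and the log2 fold change of Ifi27l2a without old 1 was 0.48. Without young 2 only Ly6a passed and without old 2 only Ifi27l2a. Over 17 alternatives Ly6a passed in 8 and Ifi27l2a in 10, and Ly6a did not pass without cells of mixed type, in cells thinned to 2000 UMIs or with Vpreb3 limits of 2 or 5 UMIs. Ly6a stood at 448 and 501 normalised CPM in young and 999 and 862 in old Vpreb3-0 B cells, so it was below them in members of 4 of 4 pools (−1.12 ± 0.10 SE, adjusted p = 9.98e-10, in the comparison of the classes). Ifi27l2a stood at 605, 607, 1477 and 675 in the Vpreb3-0 B cells of young 1, young 2, old 1 and old 2 and was higher in members (0.55 ± 0.09 SE, adjusted p = 1.7e-05).

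Of the interferon list, 19 genes were tested by age. Ly6a and Ifi27l2a passed, 6 of 19 had both old pools above both young pools, where 18.5% of all genes did, and the median log2 fold change was 0.639 against 0.0124 over all genes. Without old 1 that median was 0.0684. In the MHC class I list 0 of 23 passed, 11 had both old pools above both young pools, and the median was 0.214. H2-Q6 of this list, a gene with near-identical copies that may share its reads, stood at 99.6 and 59.1 normalised CPM in young members and 195 and 155 in old members (log2 fold change 1.09 ± 0.35 SE, adjusted p = 0.999). Ribosomal protein genes had 15 of 84 with the old pools above (median 0.0876), and nuclear oxidative phosphorylation genes 22 of 76 (median 0.0154). In the other lists Ly6a was the only gene called, and their medians lay between −0.236 for migration and adhesion and 0.134 for marginal zone and B-1 genes, apart from lists of other cells and Cd24a, the 1 marker tested (0.32 ± 0.19 SE, adjusted p = 0.999).

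Among genes that did not pass but had no overlap of the ages, those with the lowest p on the higher side in old members were 1810058I24Rik, Atp1b1, Plac8, H2-Q6, Cnih4, Mapre1, Arpc1a and Ogt, with log2 fold changes of 0.62 to 1.42 and adjusted p from 0.754 to 0.999. Atp1b1 stood at 41.0 and 54.9 normalised CPM in young pools and 130 and 127 in old members. Plac8 stood at 671 and 629 in young pools and 883 and 1225 in old members. Those on the lower side were Apoe, Fchsd2, Hspa8, Rhof, Ablim1, Actr2, Fam49b, mt-Nd5, Arid4b and Sfpq, with log2 fold changes from −1.42 to −0.53 and an adjusted p of 0.999 each. Hspa8, a chaperone, stood at 1216 and 1233 in young pools and 934 and 788 in old members. With a looser filter on low counts (edgeR's filterByExpr), 6 genes passed: Ly6a, Gng11, Cd9, Nrgn, Ctla2a and Ppbp, a platelet chemokine. Platelet genes summed to 0 and 26.5 CPM in young pools and 1247 and 186 CPM in old members, and to 2.67, 9.74, 714 and 616 CPM in the Vpreb3-0 B cells of young 1, young 2, old 1 and old 2. Their part in the age comparison was not tested.

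**Figure D5:**
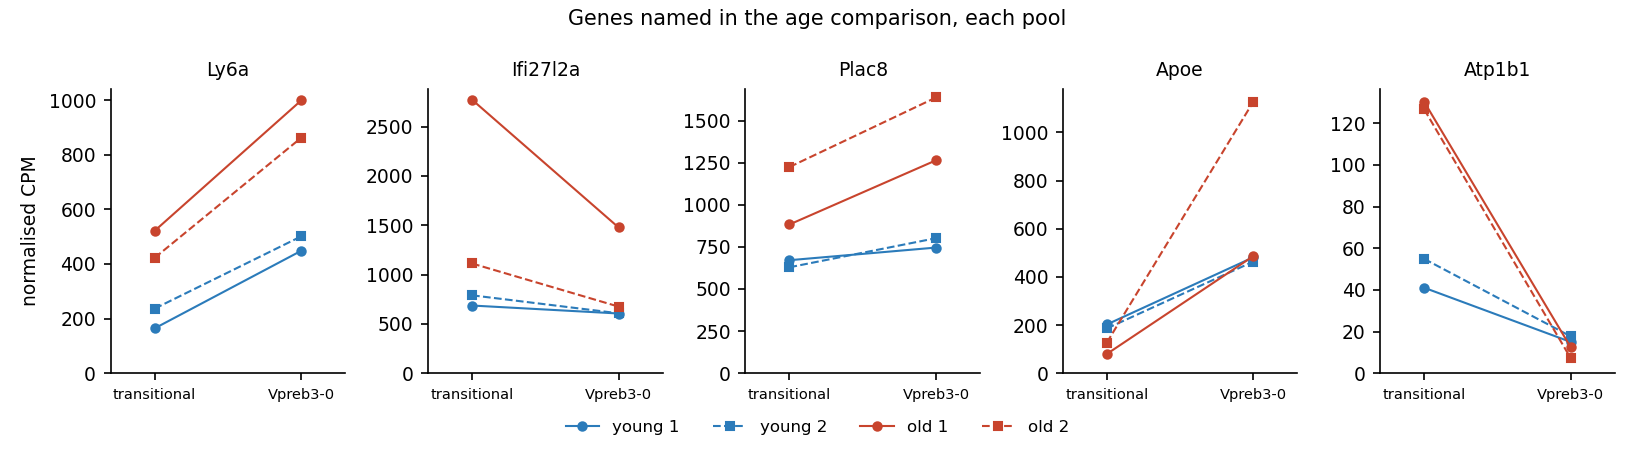
Normalised CPM (linear axes from 0) of 5 genes named in the age comparison, in transitional and Vpreb3-0 B cells, with 1 line per pool. In transitional cells the old pools lie above the young for Ly6a (521 and 422 against 164 and 236), Ifi27l2a, Plac8 and Atp1b1, and below them for Apoe.

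Whether age acted differently in transitional and in Vpreb3-0 B cells was tested over 3118 genes as an interaction of class and age, with pool as a block. It called 0 genes higher (0%) and 1 lower (0.0321%) at an adjusted p under 0.05 (edgeR quasi-likelihood test, Benjamini-Hochberg adjustment), with 136 at an unadjusted p under 0.05, and DESeq2 called 0 with 16 at an unadjusted p under 0.05. The gene was Apoe (−1.60 ± 0.31 SE on the log2 scale, adjusted p = 0.0152). It went from a mean of 194 to 103 normalised CPM with age in transitional B cells and from 473 to 807 in Vpreb3-0 B cells. Among the Vpreb3-0 B cells old 1 (487) lay beside the young pools (481 and 464) and old 2 (1128) far above them, and the call was lost without old 2 (adjusted p = 0.191), without young 1 (adjusted p = 0.999) and without young 2 (adjusted p = 0.0749). The next lowest p on the higher side were those of Atp1b1, Ifi27l2a, Traf2, 2410004B18Rik and Arpc1a (adjusted p from 0.404 to 0.479). On the lower side they were Rlim, Zbtb20, Crip1 and Ppp1r15a (0.404 to 0.479). Rlim, a ubiquitin ligase, had 18 and 12 UMIs in young and 0 and 0 in old members. Ppp1r15a, a stress-induced phosphatase subunit, had 16 and 9 UMIs in young and 0 and 0 in old members. The age effects on Ly6a and Cd24a were not shown to differ between the classes (interaction 0.30 ± 0.22 and 0.39 ± 0.20 SE on the log2 scale, adjusted p = 0.996 for both). Without old 2 the interaction of Cd24a passed (0.97 ± 0.16 SE, adjusted p = 1.185e-06), as did that of Ifi27l2a (0.64 ± 0.12 SE, adjusted p = 0.000136), and without old 1 that of Cd24a was −0.34.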

How the data were processed

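The data are UMI counts per gene and cell from 10x Chromium 3′ v2 libraries of mouse blood, in 4 samples. The authors made the deposited counts with Cell Ranger on mm10, aggregated the duplicates of each age, and kept cells with over 500 and under 4000 genes and under 10% mitochondrial reads in Seurat 2.3.0. For the annotation release and any equalising of depth nothing is given in the sources used here. Each cell's sample came from the deposited cell list. Sample totals ran from 9521253 to 18658072 UMIs. Members and gene lists were chosen with earlier results of these data known. No doublet caller was run. Cells with 2 or more UMIs of other lineages made up 41.7 to 70.9% of members per sample and were left out in an alternative. Of 14480 barcode sequences, 108 occurred in more than 1 sample, and 4 members had such a barcode.

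Counts were summed per sample and class and tested with edgeR 4.0.16 (R 4.3.3; TMM, quasi-likelihood, Benjamini-Hochberg at 0.05) on genes with a UMI in at least 10% of the cells of either class or, for age, of the members of both ages. The class comparison had sample as a block, the age comparison had age alone, and the interaction had sample as a block, class, and class by age as the tested term. SE is the log2 fold change divided by the root of F. P-values of the age comparison rest on the spread between 2 pools per age, with a variance estimate that draws on all genes. With sample as a block, those of the class comparison and the interaction rest on the spread of the class difference between pools. The fits were tested on simulated data. Genes were named by rule: the 15 per direction with the largest called change and the same sign in 4 of 4 samples, 10 per direction by age with ages apart, 5 per direction for the interaction, and up to 4 called genes per list. The levels of 2 genes that this rule takes in are not reported here. Alternatives were DESeq2 1.42.0 and its size factors, no TMM, filterByExpr or no filter, Vpreb3 limits of 2 and 5, thinned cells, S100a6 limits, other comparison cells, and each sample left out. Promoters were matched by symbol.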

Additional observations from a re-analysis of the deposited data

Results flagged for a closer look

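The age effect on Apoe differed between transitional and Vpreb3-0 B cells in the interaction test (−1.60 on the log2 scale, adjusted p = 0.0152 in edgeR's quasi-likelihood test with Benjamini-Hochberg adjustment). In transitional cells both old pools (79.6 and 127 normalised CPM) lay below both young ones (202 and 186), though its age effect there did not pass (adjusted p = 0.999), and in Vpreb3-0 B cells old 2 (1128) lay far above the others (464 to 487). It was called in 7 of 17 alternatives, with adjusted p from 2.48e-06 to 0.9997.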

How the results depend on the processing

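The limits are the small numbers of members (23 in old 2), 2 pools per age and the rule's use of single UMIs, which depends on depth. In the class comparison (192 higher and 287 lower) the count moved under DESeq2 (89 and 156), without cells of mixed type (108 and 187), without the pool as a block (108 and 172) and without TMM scaling (480 and 137, chosen after seeing the data), and to 110 higher with cells thinned to 2000 UMIs. Leaving out 1 pool gave 105 to 213 higher and 171 to 324 lower. Of the 479 genes called, 245 were also called by DESeq2 and 259 without young 1. Against all other gated B cells Fcer2a reversed to 0.16.

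For age (2 higher and 0 lower) the count of higher genes was 0 under DESeq2, with Vpreb3 of at least 2 UMIs and without ribosomal and mitochondrial genes, 1 in thinned cells, 6 with filterByExpr, 12 with no filter and 0 to 1 with 1 pool left out. The count of lower genes was 1 with no filter, with Vpreb3 of at least 5 UMIs, without cells of mixed type and with S100a6 of at most 1 UMI (added later). The fold change of Cd24a reversed to −0.31 and that of Mapre1 to −0.32 in thinned cells. For the interaction (0 higher and 1 lower), 5 were higher and 0 lower with Vpreb3 of at least 2 UMIs, 1 higher and 0 lower without cells over 6000 UMIs (added later), 0 lower under DESeq2, in thinned cells, without cells of mixed type and without TMM scaling, and 2 lower with no filter. Leaving out 1 pool gave 0 to 12 higher and 0 to 11 lower, the most without old 1. Cd24a reversed to −0.14 in thinned cells and −0.34 without old 1, passed at 0.97 without old 2, and Myl4 reversed to −0.94 with Vpreb3 of at least 5 UMIs. The cause was not tested.

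Samples of the 2 ages share replicate numbers only. The correlation of the pools' deviations was 0.00189 over 2348 genes, so no pairing by number was seen. Counting noise in sums of few cells also draws this correlation to 0, so it cannot exclude a pairing. With the replicate block, age had 2 higher and 0 lower genes and the interaction 0 higher and 3 lower. The share of members kept its sign under each alternative, with differences from −4.21 to −0.893 percentage points, and from −3.79 to −2.90 with 1 pool left out.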
